A study of Danio rerio with 4 samples.

Results

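The Neural crest cluster is 1 of 18 clusters that the study's annotation defines among single cells of the embryonic zebrafish heart. Its members were taken as the cells whose annotation reads Neural crest, which gave 783 of 34676 annotated cells (2.26%). Hearts were dissected from double transgenic embryos of 2 enhancer-trap lines, sqet31Et (et31) and sqet33mi59BEt (et33), each crossed with Tg(myl7:mRFP). EGFP in these lines marks cells of the atrioventricular canal or the sinoatrial region, and the myl7 promoter drives mRFP in cardiomyocytes, so every library carried both reporters and no library came from embryos without a transgene. Each line was sampled at 48 and 72 hours post fertilization (hpf) as 1 droplet library, and each library came from a pool of hearts. The 2 libraries of a stage are therefore different lines, with line and library not separable. The edgeR and DESeq2 p-values below rest on a spread between libraries that is estimated with information shared over genes.

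Values are given throughout in the order 48 hpf et31, 48 hpf et33, 72 hpf et31 and 72 hpf et33. The cluster held 146, 216, 202 and 219 cells with 853330, 1435686, 567761 and 277986 unique molecular identifiers (UMIs, single counted transcripts) in these libraries. Its cells were deeper at 48 hpf, with a median of 5860.5 and 7157.5 UMIs against 2052.5 and 1078 at 72 hpf, while the other annotated cells had 1695, 2362, 1645 and 841. The median mitochondrial share was 2.01%, 2.98%, 12.4% and 7.31%, beside 3.51%, 3.70%, 17.4% and 8.74% in the other cells. Stage thus cannot be told apart from depth and mitochondrial share in these libraries. Any 2 libraries had between 9 and 29 cell barcodes in common, and each library's cells were counted as its own. Levels are UMIs of a gene per 1000000 UMIs (CPM) summed over the cells of a group in 1 library. Since the libraries read transcript 3' ends of whole cell groups, fewer cells expressing a gene and less RNA of it per cell cannot be told apart in these sums.

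The neural crest is an embryonic population that forms at the border of the neural plate, leaves the neural tube and migrates. Its descendants include pigment cells, peripheral neurons and glia, and in the head the skeletal and connective tissue of the pharyngeal arches. In the zebrafish heart, crest-derived cells are known to reach the heart tube and the outflow region, and they pass through the arches on the way. Migrating crest cells are commonly recognised by sox10, foxd3 and crestin, whereas arch mesenchyme is recognised by dlx, twist and prrx1 genes, and cartilage by sox9a and collagens of cartilage matrix.

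The annotation was checked against twist1a, twist1b, id2a, id3 and sox9b, which the study gives as markers. Since clusters were made from these same values, levels against other cells are a description with no test. The twist1a transcript, encoding a basic helix-loop-helix factor of mesenchyme, reached 346, 521, 150 and 266 CPM in Neural crest and 24.2, 24.9, 13.8 and 18.5 CPM in all other annotated cells of the same libraries. Bulbus arteriosus cells had 158, 425, 132 and 150 CPM of it, the next highest mean of the clusters. Neural crest had the highest twist1a level of the 18 clusters in each of the 4 libraries. Against all other annotated cells, the mean log2 ratio of twist1a was 3.81 ± 0.40 (SD, n = 4 libraries). Its relative twist1b was at 107, 162, 301 and 417 CPM against 33.4, 48.1, 49.8 and 80.7 CPM, and its level was not the highest of the clusters in any of the 4 libraries, with AV cushion cells at a mean of 242 CPM over the libraries. The inhibitory helix-loop-helix gene id3, a target of bone morphogenetic protein (BMP) signals, was at 537, 953, 671 and 1730 CPM against 73.7, 79.6, 123 and 128 CPM, the highest of the clusters in all 4 libraries.

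For id2a, a second inhibitor of this family, the level was 240, 313, 387 and 694 CPM against 77.1, 69.2, 77.3 and 97.5 CPM. It was the highest of the clusters in 3 libraries. Cardiac peripheral nerves had a mean of 356 CPM and were above the cluster in 48 hpf et33, at 428 CPM. The sox9b transcript, encoding an HMG-box factor of crest and cartilage, was uneven, at 49.2, 233, 31.7 and 50.4 CPM against 15.2, 5.72, 8.52 and 5.15 CPM. One library, 48 hpf et33, carried most of the sox9b signal, and the cluster was highest in only 2 libraries. A UMI of twist1a was seen in 50.7%, 51.9%, 15.8% and 12.8% of the cluster's cells, and in 19.9%, 16.2%, 8.42% and 9.59% after each cell was thinned to 500 UMIs. Erythrocytes should lack twist1a and had medians of 601, 604.5, 1029 and 679 UMIs. Those annotated are only the ones that passed the authors' limit on hemoglobin reads. Their thinned shares were 1.71%, 1.90%, 0% of 147 cells (which allows up to 2.04%) and 1.31%. The cluster's shares were above these in every library, and the fall of the share from 48 to 72 hpf was smaller after thinning.

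Genes that define migrating crest were scarce in this cluster. No UMI of crestin was found in any of the 783 cells, which allows a share of up to 0.383% of cells with a UMI, and foxd3 had a single UMI. The sox10 transcript, for the factor that directs pigment and glial fates, had 5, 46, 8 and 7 UMIs, or 5.86, 32.0, 14.1 and 25.2 CPM against 0.794, 1.16, 0.573 and 0.621 CPM in other cells. By contrast snai2, a zinc-finger repressor of the epithelial-to-mesenchymal change, was at 105, 100, 116 and 266 CPM against 7.18, 5.16, 18.3 and 43.6 CPM. Of the 13 early crest genes that could be matched, 6 had at least 3 UMIs of the cluster in every library. Of these, 2 were at least 2-fold higher in all 4 libraries, beside 3.67% of all 5884 such genes. The median log2 ratio was 1.11 over these 6 and -0.11 over all 13. Early crest genes summed to 4.75, 3.40, 4.35 and 5.58 UMIs per 10000 against 1.66, 1.51, 2.53 and 2.25 in other cells. In this sum the cluster was ranked 3, 4, 5 and 4 among the clusters. By its own transcripts the cluster was marked by twist1a, id3, snai2 and mesenchymal genes, with few UMIs of sox10, and not by crestin or foxd3.

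Pigment cell genes of the cluster summed to 1.28, 1.41, 1.07 and 1.94 UMIs per 10000, against 0.869, 1.34, 0.929 and 1.74 in other cells, and dct, tyr, slc24a5 and oca2 of the melanin pathway had no UMI. Neuronal genes summed to 0.855, 0.418, 0.616 and 0.648 UMIs per 10000, against 4.08, 2.08, 2.04 and 1.82 in other cells, where Cardiac peripheral nerves had 89.3, 69.1, 56.4 and 65.5. Schwann cell and glial genes summed to 0.352, 0.564, 0.616 and 1.73 against 0.354, 0.382, 0.240 and 0.336, and the myelin genes mbpa, plp1b and mpz had no UMI. In the glial sum the cluster was ranked 6, 7, 3 and 1 among the clusters. The sox10 and egr2b genes of that list were both at least 2-fold higher than other cells in all 4 libraries. In 72 hpf et33 most of the glial sum was egr2b, at 126 CPM, which is also on the immediate early list.

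Levels were next compared across all genes. Of 5884 genes with at least 3 UMIs in the cluster in every library, 216 (3.67%) were at least 2-fold higher than in other cells in all 4 libraries and 137 (2.33%) at least 2-fold lower, and the median log2 ratio of all of them was -0.11. The 20 genes with the highest lowest ratio led this order, and 14 of these 20 were the highest of the 18 clusters in every library, as 36 of all genes were (0.612%). Leading them was fgfbp2b, a secreted carrier of fibroblast growth factors (FGF), at 192, 794, 181 and 137 CPM against 7.78, 7.88, 1.83 and 0.888 CPM. Mesoderm progenitors, the next cluster, had a mean of 60.8 CPM of it.

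**Figure D1:**
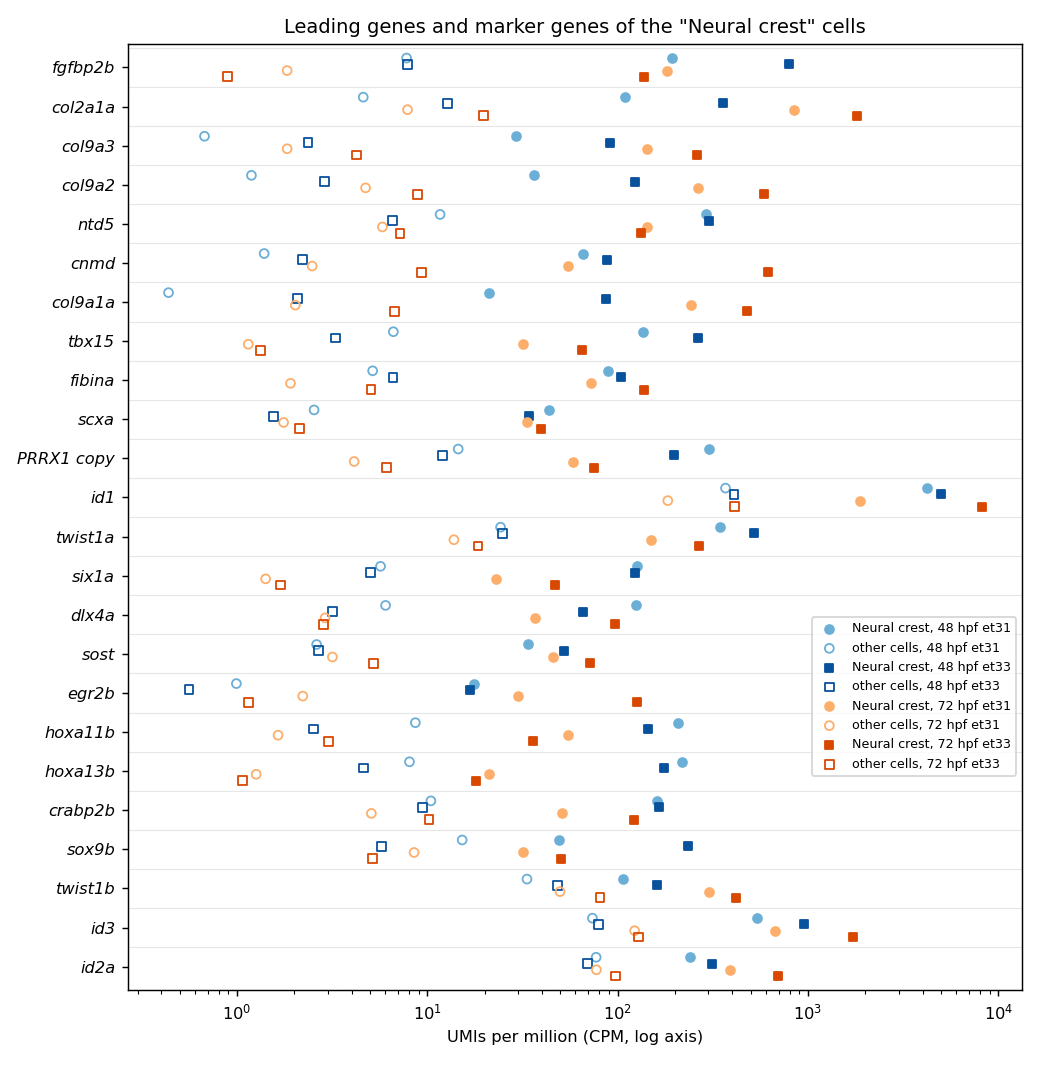
Level in CPM (log axis) of the 20 leading genes and the remaining markers in Neural crest (filled) and in all other annotated cells (open), 1 point per library coloured by library. In every library the filled point lies to the right of the open one, the log2 ratios of scxa spread least (SD 0.06) and those of sox9b most (SD 1.62).

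Cartilage collagens followed. The col2a1a transcript, for the type II collagen that forms the fibrils of cartilage, was at 109, 357, 844 and 1813 CPM against 4.60, 12.7, 7.87 and 19.8 CPM. Of the type IX collagens that coat these fibrils, col9a1a was at 21.1, 87.1, 243 and 478 CPM against 0.437, 2.08, 2.02 and 6.75 CPM. The other chains were col9a2 at 36.3, 123, 264 and 586 CPM and col9a3 at 29.3, 91.2, 143 and 263 CPM. In 48 hpf et33 the Bulbus arteriosus cells were above the cluster, at 577 CPM of col2a1a, 95.1 CPM of col9a1a and 104 CPM of col9a3. In each of these the 2 libraries at 72 hpf lay above both at 48 hpf. The gene for chondromodulin, cnmd, a cartilage glycoprotein that inhibits vessel growth, was at 65.6, 87.8, 54.6 and 615 CPM against 1.39, 2.2, 2.48 and 9.32 CPM, and its stages overlapped because only 72 hpf et33 was high.

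A second group was made of transcription factors of limb, fin and arch mesenchyme. The T-box gene tbx15, known for its role in skeletal and skin mesenchyme of mice, was at 136, 265, 31.7 and 64.8 CPM against 6.63, 3.28, 1.15 and 1.33 CPM. A copy of PRRX1 (ENSDARG00000033971), a homeobox factor of limb and head mesenchyme in mammals, was at 304, 198, 58.1 and 75.5 CPM against 14.5, 12, 4.12 and 6.12 CPM. Bulbus arteriosus cells had 135, 188, 23.7 and 33.5 CPM of this copy. The homeobox genes six1a, at 127, 123, 22.9 and 46.8 CPM, and dlx4a, at 125, 65.5, 37.0 and 97.1 CPM, were the highest of all clusters in every library. For tbx15, the PRRX1 copy and six1a both 48 hpf libraries lay above both 72 hpf libraries, and for dlx4a the stages overlapped.

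Posterior hox genes, which pattern the trunk and the fin or limb bud, were also among the leads. The hoxa13b transcript was at 217, 176, 21.1 and 18 CPM against 8.06, 4.64, 1.26 and 1.07 CPM, and hoxa11b was at 209, 144, 54.6 and 36.0 CPM against 8.65, 2.52, 1.64 and 3.02 CPM. Both were the highest of the 18 clusters in all libraries, and no other cluster exceeded a mean of 22.6 CPM for hoxa11b. The tendon factor scxa, the zebrafish relative of scleraxis, was the most even lead, at 43.4, 34.1, 33.5 and 39.6 CPM against 2.54, 1.56, 1.76 and 2.13 CPM. Bulbus arteriosus cells had a slightly higher mean, 39.6 CPM against 37.6 CPM in Neural crest. Cells of the heart and cells of adjoining tissue taken along at dissection cannot be told apart in these files, which holds for the cartilage, arch and hox levels alike.

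The remaining leads included id1, a BMP target of the inhibitor family above, at 4198, 4973, 1885 and 8187 CPM against 369, 409, 183 and 410 CPM. The egr2b gene, whose zinc-finger product is needed for hindbrain segments and myelination, was at 17.6, 16.7, 29.9 and 126 CPM against 0.992, 0.560, 2.22 and 1.15 CPM. The retinoic acid binding gene crabp2b was at 162, 165, 51.1 and 122 CPM, fibina at 89.1, 104, 72.2 and 137 CPM, ntd5 at 292, 304, 143 and 133 CPM, and sost, for the secreted Wnt inhibitor sclerostin, at 34.0, 52.2, 45.8 and 71.9 CPM. The sost level was not the highest of the clusters in any library, and Epicardium had a mean of 40.3 CPM. At the other end stood heart muscle, endothelial and keratinocyte genes. The reporter RFP was at 34.0, 18.8, 17.6 and 10.8 CPM against 829, 319, 145 and 98.3 CPM, the endothelial cadherin cdh5 at 22.3, 46.7, 122 and 180 CPM against 822, 1085, 780 and 993 CPM, and the keratin krt4 at 41.0, 57.8, 123 and 151 CPM against 441, 467, 1184 and 846 CPM.

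Whole lists were described in the same way. Of 27 matched cartilage genes, 17 had at least 3 UMIs per library. Of these, 14 were at least 2-fold higher in all 4 libraries and none lower (median log2 ratio 2.77, and 2.45 over all 27). The minimum counts the cluster's own UMIs, so members low in the cluster dropped out. Cartilage UMIs summed to 13.1, 30.8, 33.1 and 75.6 per 10000, the highest of all clusters in every library, against 2.79, 1.93, 3.25 and 3.24 in other cells. Erythrocytes had 2.5, 1.26, 1.67 and 3.72. This list also holds fgfbp2b and hapln1a, and in the narrower cartilage matrix set below the cluster was not the highest at 48 hpf. Of 28 arch mesenchyme genes, 11 of 16 were higher (median 1.99, and 1.62 over all 28). Their sums were 15.13, 16.5, 7.75 and 10.2 per 10000 against 4.49, 4.36, 3.02 and 3.76. Mesoderm progenitors were close to the cluster in arch genes at 14.3, 17.3, 7.66 and 9.44 per 10000, and exceeded it at 48 hpf in et33. Of 39 genes of the hox list, which also holds meis and pbx genes, 6 of 15 were higher (median 1.12, and 0.39 over all 39). The cluster's sum of this list, 12.6, 13.8, 6.36 and 5.36 per 10000, was ranked 4, 3, 5 and 5 among the clusters. In the narrower posterior hox set below, the cluster was the highest of all clusters in every library, at 6.33, 7.49, 0.705 and 1.04 per 10000.

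**Figure D2:**
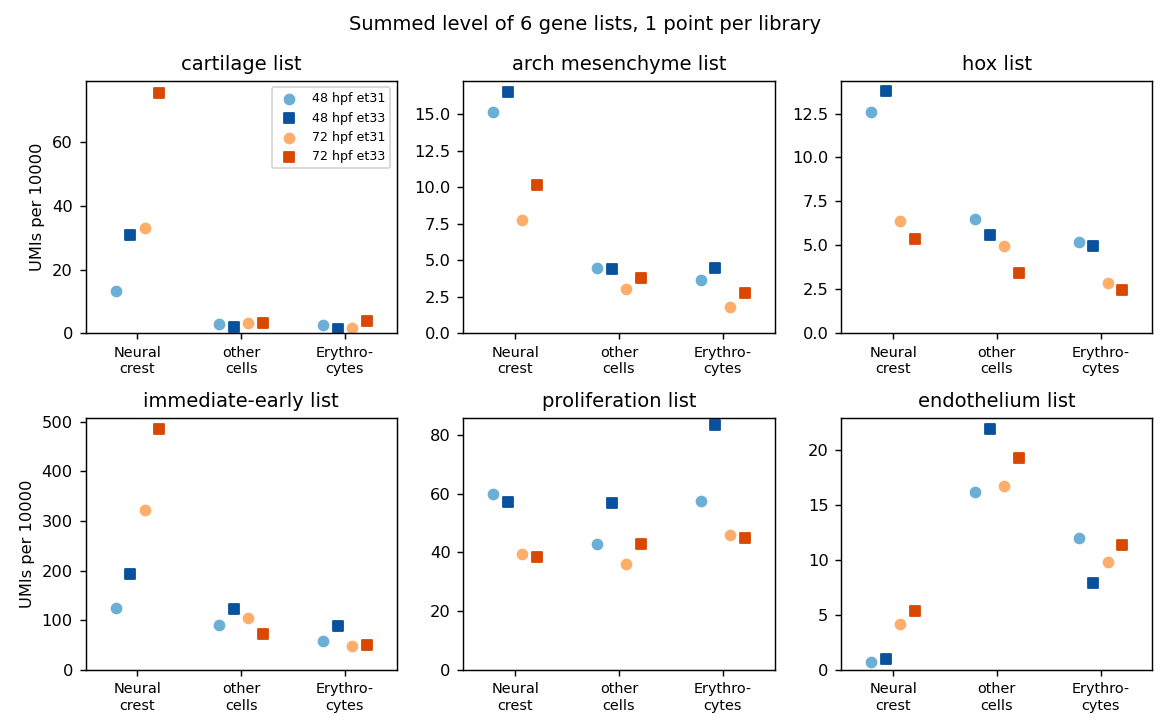
Summed level in UMIs per 10000 of 6 gene lists in Neural crest, in all other annotated cells and in Erythrocytes, 1 point per library on a linear axis from 0. Cartilage genes reach 13.1 to 75.6 per 10000 in Neural crest and 1.93 to 3.25 in other cells, while endothelium genes run from 0.680 to 5.32 in Neural crest and from 16.1 to 21.9 in other cells.

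Cells of the cluster were not alike in these programs. After the values were seen, 3 sets were formed, of 11 cartilage matrix genes, 11 hox genes of paralogue groups from 9 to 13 and 5 dlx genes. The leading genes hoxa11b and dlx4a were not in these sets, and hoxa11a of the hox set had no UMI in the cluster. A cell was counted for a set when it had UMIs of at least 2 of its genes. The cartilage matrix set was seen in 13, 76, 33 and 26 cells (8.90%, 35.2%, 16.3% and 11.9%), and in 2.05%, 6.02%, 10.4% and 6.39% after thinning. The order of the libraries thus changed with depth, and 48 hpf et33 was no longer the highest. The thinned share in Erythrocytes was 0% in 3 libraries, which allows up to 1.71%, 0.815% and 2.04%, and 1.60% in 72 hpf et33. In UMIs of the cartilage matrix set the cluster was ranked 2, 2, 1 and 1 among the clusters. In 48 hpf et31 Epicardium had 5.00 per 10000 against 2.80 in the cluster, and in 48 hpf et33 Bulbus arteriosus had 10.0 against 8.22.

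The posterior hox set was seen in 53, 88, 8 and 5 cells (36.3%, 40.7%, 3.96% and 2.28%), and in 5.48%, 7.41%, 0.495% and 0.457% after thinning. Both measures placed the 48 hpf libraries above the 72 hpf libraries. The dlx set was seen in 17, 28, 6 and 4 cells (11.6%, 13%, 2.97% and 1.83%), and after thinning in 2.05% and 2.78% at 48 hpf and in no cell at 72 hpf, which allows up to 1.49% and 1.37%. In Erythrocytes the thinned share was at most 0.272% for the hox set and for the dlx set. In UMIs of the dlx set the cluster was ranked 3, 1, 3 and 2 among the clusters. It had 3.60, 3.29, 0.705 and 1.37 per 10000, against 6.25, 1.94, 3.42 and 4.60 in Cardiac peripheral nerves.

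At 48 hpf the hox set was seen in 36.3% (et31) and 40.7% (et33) of all the cluster's cells. Among cells with the dlx set its share was lower in both libraries. Of 53 and 88 cells with the hox set, 1 and 2 also had the dlx set (1.89% and 2.27% of the hox cells, and 5.88% and 7.14% of the 17 and 28 dlx cells). Cartilage and hox sets met in 4 of 13 cartilage cells of et31 (30.8%, and 7.55% of the hox cells) and in 42 of 76 of et33 (55.3%, and 47.7%). The hox share among cartilage cells was thus below that of all the cluster's cells in et31 and above it in et33. These are cells of 1 library per line. Whether the overlaps differ from those of unrelated sets, or between the lines, was not tested. At 72 hpf the overlaps came to 4 cells or fewer in each library. None of the 3 sets was seen in 68, 75, 161 and 190 cells (46.6%, 34.7%, 79.7% and 86.8%), a share that was higher at 72 hpf, where the cells were shallower.

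**Figure D3:**
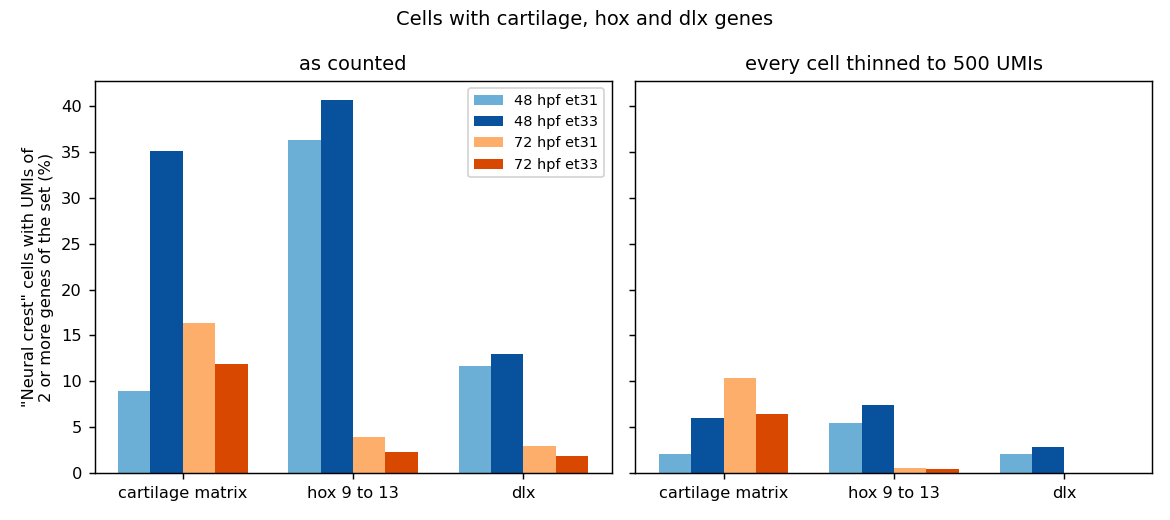
Percent of Neural crest cells with UMIs of at least 2 genes of the cartilage matrix, posterior hox and dlx sets in each library, as counted and after thinning each cell to 500 UMIs. The posterior hox set falls from 36.3% and 40.7% at 48 hpf to 3.96% and 2.28% at 72 hpf as counted, and from 5.48% and 7.41% to 0.495% and 0.457% after thinning.

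The stage comparison asked which genes of the cluster differed between 48 and 72 hpf, using UMI sums per library in edgeR's quasi-likelihood test with Benjamini-Hochberg adjustment over 5509 genes. At an adjusted p below 0.05, 374 genes were higher at 72 hpf (6.79%) and 98 were lower (1.78%), with a median log2 difference of -0.05 over all genes. Without the 72 hpf et31 library the number of lower genes was 286. Since the 48 hpf cells had a mean of the library medians of 6509 UMIs and the 72 hpf cells 1565.25, cells were also thinned to 500 UMIs each, which left 1267 testable genes, 102 higher and 13 lower. The shares of 6.79% and 1.78% over all genes are the background of the list counts below. Of the 5 markers none passed (2 were higher and 2 lower at an unadjusted p below 0.05, and the alternatives gave 0 to 2 higher and 0 to 2 lower), with adjusted p from 0.0535 for twist1b to 0.559 for id3.

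Of 21 cartilage genes tested, 9 were higher at 72 hpf, 1 was lower and 11 did not pass, with a median log2 difference of 1.49. Among 24 cartilage genes the interaction test below gave 3 higher and 2 lower stage differences in the cluster than in other cells. The cartilage matrix set was seen in only 16.3% and 11.9% of the cluster's cells at 72 hpf. The col2a1a transcript rose by a log2 difference of 2.28 (SE 0.56, adjusted p = 0.0335, edgeR). Its difference was 2.64 after removing cells with endothelial or epidermal genes, where it did not pass (adjusted p = 0.116, edgeR), and 1.62 without 48 hpf et31. Transcripts that were nearly absent at 48 hpf moved most. The gene matn1, for the cartilage matrix protein matrilin, went from 1.17 and 6.97 CPM to 129 and 827 CPM, a log2 difference of 6.38 (SE 0.90, adjusted p = 0.0029). The small proteoglycan gene epyc, for epiphycan, went from 0 and 0.697 CPM to 37.0 and 187 CPM (adjusted p = 0.0029), and ucmab, a cartilage matrix protein gene, from 0 and 1.39 CPM to 17.6 and 284 CPM (adjusted p = 0.0106). In all of these both 72 hpf libraries were above both 48 hpf libraries, and 72 hpf et33 was the highest.

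Type XI collagen, the nucleator of cartilage fibrils, also rose. The level of col11a2 was 9.38, 36.2, 164 and 399 CPM, a log2 difference of 3.31 (SE 0.59, adjusted p = 0.00787), and that of col11a1a was 29.3, 107, 264 and 770 CPM, a log2 difference of 2.64 (SE 0.61, adjusted p = 0.0265). In the other direction stood hapln1a, which links hyaluronan to proteoglycan and is also expressed in heart cells, at 362, 617, 118 and 155 CPM, where it fell by 2.02 on the log2 scale (SE 0.38, adjusted p = 0.0103). The master regulator of cartilage, sox9a, was at 48.0, 96.1, 33.5 and 64.8 CPM with overlapping stages (log2 difference -0.80, SE 0.49, adjusted p = 0.347). Thinning to 500 UMIs left 4 of 11 tested cartilage genes higher, removing cells with endothelial or epidermal genes (added after the data were seen) left 4 of 20, and leaving out 1 library at a time gave 7 to 11.

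Arch mesenchyme genes moved the other way, with 8 of 18 lower at 72 hpf, none higher (1 at an unadjusted p below 0.05, none by DESeq2), and a median log2 difference of -1.55. Homeobox genes of the ventral and intermediate arch made up much of this. The dlx5a transcript was at 122, 156, 31.7 and 50.4 CPM and fell by 1.96 on the log2 scale (SE 0.39, adjusted p = 0.0125), and dlx3b was at 121, 86.4, 22.9 and 54.0 CPM and fell by 1.65 (SE 0.43, adjusted p = 0.0415). Also lower were gsc, encoding the homeobox factor goosecoid, at 64.5, 96.8, 10.6 and 18 CPM (adjusted p = 0.0103), and msx2b, a BMP-responsive homeobox gene, at 329, 105, 61.6 and 18 CPM (adjusted p = 0.0393). The stages did not overlap for any of these 4 genes.

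The remaining lower arch genes were dlx4b, dlx6a, foxf2a and meox1, of which meox1 was at 163, 256, 49.3 and 93.5 CPM and fell by 1.77 on the log2 scale (SE 0.40, adjusted p = 0.024). Not every arch gene fell, since foxc1b, a forkhead gene of crest mesenchyme and of other clusters, was at 154, 413, 335 and 371 CPM (adjusted p = 0.887). DESeq2 called 5 of the 18 arch genes lower, leaving out 1 library at a time gave 6 to 9, and after thinning only 5 arch genes could be tested, 1 of them lower. In other cells gsc (log2 difference -3.76, adjusted p = 0.00923) and foxf2a (-2.29, adjusted p = 0.0116) were also lower at 72 hpf. Of the 8, dlx3b had a lower stage difference in the cluster than in other cells (interaction -1.71, SE 0.43, adjusted p = 0.00308).

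Genes of the hox list, which also holds meis and pbx genes, followed the arch genes, with 7 of 17 lower and a median log2 difference of -2.04. None was higher (also none at an unadjusted p below 0.05 or by DESeq2), and the 7 lower ones were hox genes. The most posterior of them, hoxa13b, fell by 3.39 on the log2 scale (SE 0.38, adjusted p = 0.00105). The hoxa9b transcript was at 93.8, 131, 10.6 and 7.19 CPM (adjusted p = 0.00266), hoxd9a at 59.8, 133, 7.05 and 10.8 CPM (adjusted p = 0.007) and hoxa10b at 63.3, 141, 7.05 and 14.4 CPM (adjusted p = 0.00757). Both libraries at 48 hpf were several-fold above both at 72 hpf for each of these genes, and the thinned cells gave 2 of 5 tested genes of the hox list lower. Leaving out 1 library at a time gave 6 to 9 lower hox genes, and among 32 hox list genes the interaction test below gave 1 lower stage difference in the cluster, hoxa9b (-2.25, SE 0.63, adjusted p = 0.0122), and 2 higher ones, hoxb6a (3.12, adjusted p = 0.00279) and meis3 (3.99, adjusted p = 0.0379).

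**Figure D4:**
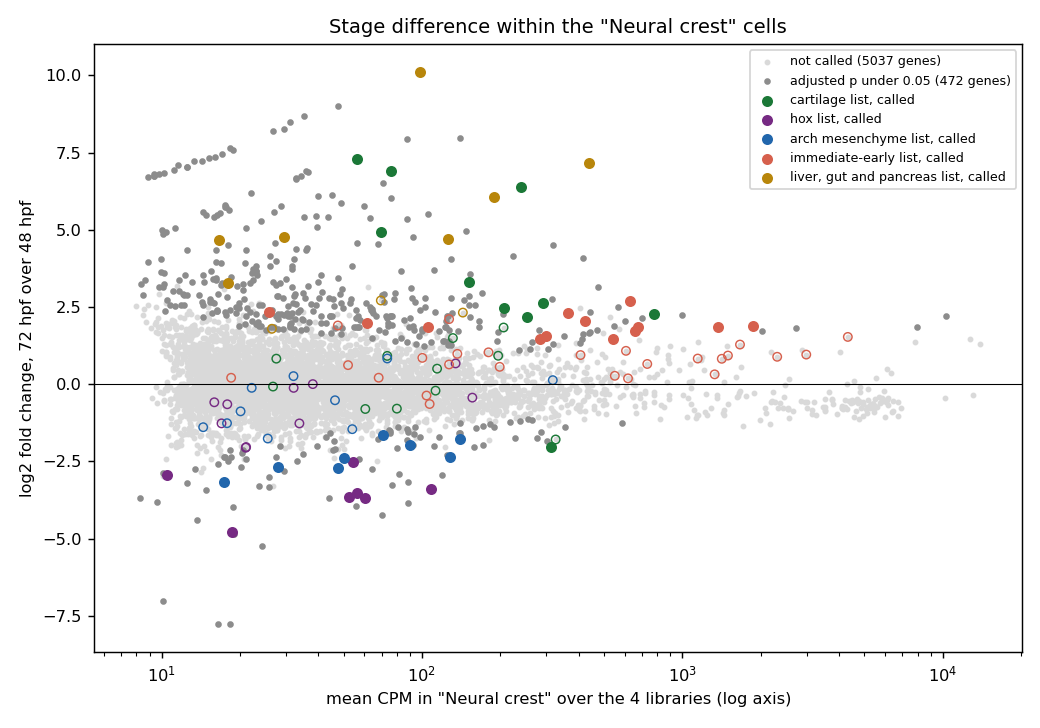
Log2 difference of 72 against 48 hpf within Neural crest (edgeR) plotted against the mean CPM over the 4 libraries (log axis) for all 5509 tested genes, with genes past an adjusted p of 0.05 in dark grey and members of 5 lists in colour, filled where called and open where not. The called cartilage genes lie above 0 except hapln1a, and the called hox and arch genes lie below 0.

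Genes of fibroblast and tendon matrix were higher at 72 hpf in 9 of 18 cases, with none lower (also none at an unadjusted p below 0.05 or by DESeq2) and a median of 1.5. Their sum was 19.1, 16.0, 41.3 and 50.8 UMIs per 10000, and other cells also rose, at 17.6, 17.9, 31.1 and 30.3. The cluster was ranked 6, 7, 6 and 4 among the clusters in this sum. In the interaction test below, 7 of 20 had a higher stage difference in the cluster and 2 a lower one. The fibrillar collagen gene col1a2 was at 158, 116, 749 and 737 CPM, a log2 difference of 2.32 (SE 0.32, adjusted p = 0.00259). Of the small proteoglycan genes, ogna, for osteoglycin, went from 0 and 0.697 CPM to 79.3 and 57.6 CPM (adjusted p = 0.00105), and lum, for lumican, from 5.86 and 7.66 CPM to 21.1 and 71.9 CPM (adjusted p = 0.0378). The matrix gene postna, for periostin, went from 1.17 and 0 CPM to 68.7 and 61.2 CPM (adjusted p = 0.00111), with Erythrocytes at 8.64, 0, 85.7 and 182 CPM. The cluster's level of postna was thus below that of Erythrocytes at 72 hpf et31 and et33, whereas ogna was above theirs, at 8.57 and 7.34 CPM.

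Elastic fibre and smooth muscle genes rose in 5 of 6 cases, with a median of 3.67, which was the same with elnb at its bound. The elastin gene elnb, typical of the bulbus arteriosus, had no UMI at 48 hpf and 72.2 and 68.3 CPM at 72 hpf, and was at least 53.6-fold higher, taking a floor of 3 counts over the 2 libraries. Other cells went from 0 and 0 CPM to 59.2 and 67.1 CPM of it. The gene fbln5, for the elastic fibre protein fibulin 5, was at 7.03, 2.09, 266 and 147 CPM (adjusted p = 0.00105), and the smooth muscle actin gene acta2 at 2.34, 4.18, 35.2 and 36.0 CPM (adjusted p = 0.00826). The matrix cross-linking enzyme gene lox followed, at 0, 1.39, 345 and 212 CPM, with a log2 difference of 7.99 (SE 0.67, adjusted p = 0.000528) and other cells at 1.07, 0.320, 134 and 136 CPM.

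Among the 10 genes that rose most, tnxba was the one that other cells hardly had. This tenascin gene, whose relatives build connective tissue matrix, was at 0, 0.697, 72.2 and 277 CPM in the cluster and at 0.357, 0.200, 0.306 and 1.69 CPM in other cells, and its stage difference was higher in the cluster (interaction 6.72, SE 1.26, adjusted p = 8.78e-06). Most of the others rising were liver and gut genes. The liver fatty acid binding gene fabp10a had no UMI at 48 hpf and reached 166 and 227 CPM by 72 hpf, an increase of at least 150-fold, and other cells had 0.635, 0.160, 294 and 427 CPM. Likewise rbp2b, prss59.2, fgg, uox, ctrb.1 and apom had no UMI in the cluster at 48 hpf, and their bounds ran from 27.9-fold for ctrb.1 to 72.3-fold for rbp2b.

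Of the 10 liver, gut and pancreas genes tested, 7 were higher at 72 hpf, with a median log2 difference of 4.69, the same with fabp10a at its bound. Their sum moved from 1.66 and 0.306 to 14.7 and 29.6 UMIs per 10000 in the cluster. Other cells had 4.80, 12.5, 59.0 and 188 per 10000 and Erythrocytes 15.5, 7.05, 30.2 and 128, so that the cluster lay below both at 72 hpf. Of 11 liver genes in the interaction test against other cells, described below, 0 had a higher stage difference in the cluster (also 0 at an unadjusted p below 0.05) and 1 a lower one. The liver fibrinogen gene fgg, which is not on that list, did have a higher one (7.99, SE 2.4, adjusted p = 0.0396), a fitted value from no UMI at 48 hpf that is no bound.

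The genes that fell most were led by grem2b, a secreted BMP antagonist, at 55.1 and 18.1 CPM in the 48 hpf libraries. It had no UMI in either 72 hpf library and was at least 10.3-fold lower there. Its stage difference was further from 0 in the cluster than in other cells (adjusted p = 0.00325), which had 7.38, 7.56, 2.02 and 6.39 CPM. The parathyroid hormone gene pth1a was at 21.1 and 44.6 CPM and then at 0 and 0, at least 9.26-fold lower, with other cells between 0.191 and 0.680 CPM in the 4 libraries. A copy of LIN28A (ENSDARG00000016999), an RNA-binding protein of early developmental stages, was at 157, 108, 5.28 and 10.8 CPM, a log2 difference of -4.25 (SE 0.49, adjusted p = 0.00111). The forebrain homeobox relative emx3 was at 27.0, 44.6, 3.52 and 0 CPM and hoxd11a at 42.2, 28.6, 0 and 3.60 CPM. The rest of the 10 were si:dkey-261m9.11, the embryonic globin hbbe3, cyp1a, histh1l2 and zgc:110425, and each of these 5 was also lower at 72 hpf in other cells by its CPM.

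Immediate early genes, which respond within minutes to growth factors and to handling such as dissociation, were high in the cluster and more so at 72 hpf. Their sum was 125, 193, 322 and 486 UMIs per 10000, against 90.4, 123, 103 and 71.1 in other cells and 58.8, 88.5, 48.5 and 49.1 in Erythrocytes. Stages did not overlap, at 159 ± 48.6 against 404 ± 116 (SD, n = 2 libraries each; exact permutation p = 0.333, two-sided, the smallest that 2 against 2 libraries can give). The cluster was ranked 3, 1, 1 and 1 among the clusters in this sum, and Mesenchymal fibroblasts had 138 per 10000 in 48 hpf et31. After thinning, 70.5%, 81.0%, 87.1% and 84.5% of its cells had UMIs of at least 2 of these genes. Other cells were at 75.1%, 81.7%, 82.7% and 71.9%, so the cluster was not above them at 48 hpf by this measure. Of 39 immediate early genes with at least 3 UMIs per library, 13 were at least 2-fold higher than in other cells in all libraries. Their median log2 ratio was 1.35, and 1.23 over all 42 matched. Of 38 tested by stage, 13 were higher and none lower (median 1.01; also none lower at an unadjusted p below 0.05 or by DESeq2), where the all-gene share is 6.79%.

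The cytokine feedback gene socs3a was at 98.4, 204, 985 and 1223 CPM, a log2 difference of 2.68 (SE 0.42, adjusted p = 0.00492), while other cells were at 264, 501, 390 and 252 CPM. The AP-1 family gene jdp2b was at 516, 928, 2596 and 3410 CPM (adjusted p = 0.02), and the zinc-finger gene egr1 at 179, 342, 791 and 1378 CPM (adjusted p = 0.0227). For fosab, the fish c-fos, the level was 1218, 2788, 5110 and 8155 CPM, which did not pass the stage test (log2 difference 1.53, SE 0.49, adjusted p = 0.0862) but did pass the interaction test (1.5, SE 0.23, adjusted p = 2.80e-08). The count of 13 was 7 in thinned cells, 10 in cells with at least 1000 UMIs, 5 without 48 hpf et31 and 23 without 72 hpf et31. Heat shock genes, which also respond to handling, had 1 of 17 higher at 72 hpf (hspb1, adjusted p = 0.00332) and none lower, where 4 were lower at an unadjusted p below 0.05 and none by DESeq2.

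The second test asked whether the stage difference was the same in the cluster as in all other annotated cells of the same libraries. It used the UMI sums of both groups in edgeR, with library as a term. Its p-values draw on a spread shared over genes. Very small ones are therefore not replicate evidence from 2 libraries per stage alone. The stage difference was taken as 72 minus 48 hpf on the log2 scale, and of 14364 genes 472 had a higher one in Neural crest (3.29%) and 197 a lower one (1.37%). Leaving out 1 library at a time gave 275 to 335 and 90 to 125, the fewest in both cases without 72 hpf et33. Since the make-up of the other cells by cluster also differs between stages, a change in those cells and a change in the cluster can each produce such a difference, and both levels are given.

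Immediate early genes were the largest group, with 26 of 42 higher and none lower (also none at an unadjusted p below 0.05), 11 without 72 hpf et33 and 20 to 28 under the other settings. Of the fibroblast and tendon list 7 of 20 were higher and 2 lower, and of the heart muscle list 4 of 7 were higher and 0 lower. Of the endothelial genes 6 of 6 were higher. For cdh5 the cluster went from 22.3 and 46.7 to 122 and 180 CPM while other cells were at 822, 1085, 780 and 993 CPM (interaction 2.10, SE 0.30, adjusted p = 6.37e-10). The endothelial factor sox7 was at 28.1, 15.3, 146 and 176 CPM against 196, 253, 230 and 258 CPM, and Erythrocytes had 164, 111, 116 and 145 CPM. The list's sum was 0.680, 1.02, 4.16 and 5.32 UMIs per 10000 in the cluster and 12, 7.89, 9.82 and 11.3 in Erythrocytes, so the cluster was below Erythrocytes in each library. The part of free RNA in this was not tested.

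**Figure D5:**
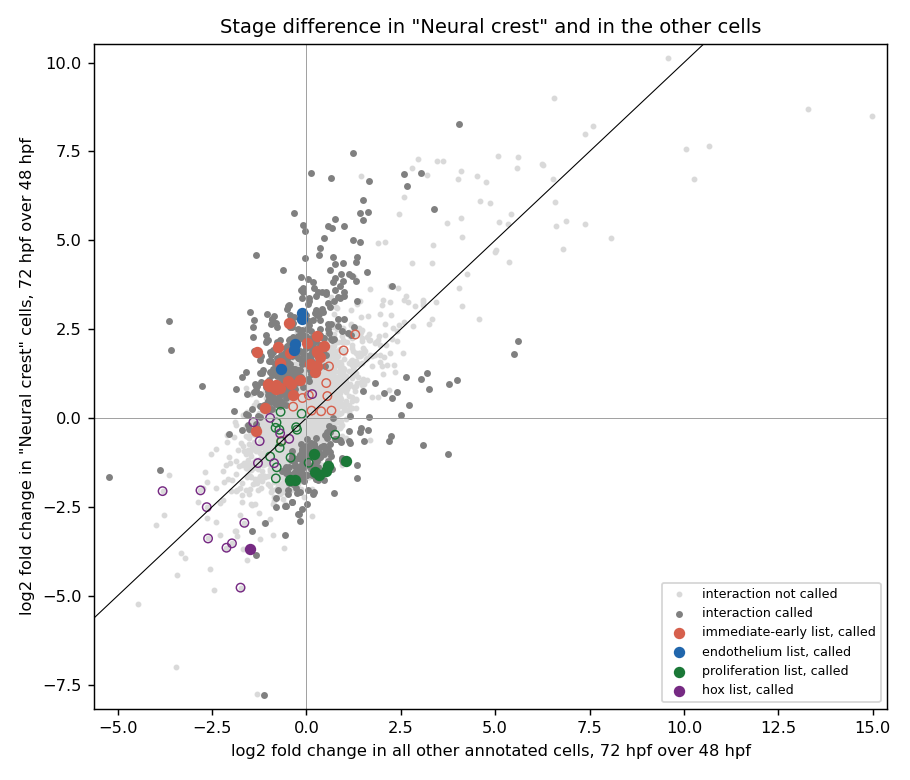
Log2 stage difference (72 against 48 hpf) in Neural crest plotted against that in all other annotated cells for genes tested in both, with genes past the interaction test (edgeR, adjusted p below 0.05) in dark grey and members of 4 lists in colour, filled where called. The line marks equal differences, and the called immediate early and endothelium genes lie above it and the called proliferation genes and hoxa9b below it.

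The genes with the smallest adjusted p were mostly those in which the cluster was low at 48 hpf and reached the level of other cells at 72 hpf. The endothelin gene edn2 was at 7.03, 29.95, 100 and 57.6 CPM, while other cells went from 408 and 663 to 60.8 and 41.8 CPM (difference 5.37, SE 0.37, adjusted p = 2.03e-44). The LIM-domain gene crip2 was at 16.4, 26.5, 534 and 317 CPM against 416, 501, 377 and 306 CPM (4.57, SE 0.31), and the keratin krt94 at 112, 69.0, 976 and 737 CPM against 951, 1213, 943 and 861 CPM (3.41, SE 0.27). The heart T-box gene tbx20 went from 5.86 and 2.79 to 116 and 101 CPM, above the other cells at 72 hpf, which had 34.6 and 38.0 CPM (5.74, SE 0.47). The muscle LIM gene fhl2a was at 21.1, 11.8, 113 and 169 CPM against 433, 120, 117 and 103 CPM (4.08, SE 0.35).

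In the lower direction, the epicardial T-box gene tbx18 was at 165, 166, 125 and 82.7 CPM in the cluster while other cells went from 7.30 and 3.40 to 54.7 and 49.2 CPM (difference -4.14, SE 0.34, adjusted p = 7.02e-30). At 48 hpf the cluster was thus far above the other cells in tbx18, and at 72 hpf the 2 were closer. A myosin gene copy under the human symbol MYH6 (ENSDARG00000079564) was at 254, 75.9, 12.3 and 10.8 CPM against 1807, 669, 673 and 416 CPM (-2.73, SE 0.40). Its zebrafish name was not resolved, and it is not the identifier matched to zebrafish myh6. The antioxidant gene prdx2 (-1.96), the apolipoprotein gene apoc1 (-4.12) and the hormone gene sst2 (-3.62) had higher CPM in other cells at 72 than at 48 hpf, where sst2 was at 103, 36.1, 718 and 7044 CPM. The apoc1 result rested on 48 hpf et31, where the cluster had 125 CPM against 0.697 CPM in et33. Without that library the difference was 1.31. With all libraries the apoc1 adjusted p was 8.59e-17 (edgeR), although its 48 hpf libraries were this far apart.

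Signalling genes were read from further lists. BMP pathway genes summed to 54.6, 67.5, 35.8 and 113 UMIs per 10000, the highest of all clusters in every library, against 12, 15.2, 9.85 and 12.4 in other cells. Most of this was id1, at 42, 49.7, 18.8 and 81.9 per 10000, and without id1, id2a and id3 the other 22 genes summed to 4.85, 5.09, 6.36 and 7.27 against 6.79, 9.61, 6.02 and 6.07. Of the 16 with at least 3 UMIs per library, 5 were at least 2-fold higher in all libraries, namely id1, id2a, id3, nog2 and bmpr1ba. The antagonist gene nog2, a noggin, was at 50.4, 76.6, 49.3 and 61.2 CPM against 17.3, 7.48, 6.87 and 2.57 CPM, and the receptor gene bmpr1ba at 19.9, 25.8, 12.3 and 10.8 CPM against 5.95, 2.76, 2.71 and 2.04 CPM. By stage, 1 of 17 was higher, the transducer smad9 (36.3, 24.4, 130 and 151 CPM, adjusted p = 0.007), and 1 lower, grem2b.

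YAP and TEAD are the effectors of the Hippo pathway that respond to tension and density. Genes of a list of their targets, which also holds the effector genes yap1, wwtr1 and tead1a, were also high. Their sum was 31.1, 42.0, 58.8 and 90.6 UMIs per 10000 against 9.79, 11.6, 13.3 and 14.4. It was ranked 2 at 48 hpf, where Bulbus arteriosus cells had 43.3 and 49.4, and 1 at 72 hpf. Of 12 with at least 3 UMIs per library, 5 were at least 2-fold higher in all libraries (median 1.80, and 1.74 over all 14 matched). The matricellular gene ccn1 was at 1141, 1524, 2638 and 3489 CPM against 176, 261, 345 and 179 CPM, and the tissue factor gene f3b at 570, 957, 1161 and 2068 CPM against 69.1, 66.6, 145 and 128 CPM. By stage, the thrombospondin genes thbs1a, at 43.4, 37.6, 472 and 1104 CPM (log2 difference 4.1, SE 0.42, adjusted p = 0.000885), and thbs1b, at 46.9, 79.4, 287 and 406 CPM (2.26, SE 0.37, adjusted p = 0.00616), were higher at 72 hpf. Several of these genes are also induced quickly by handling, as the immediate early genes are.

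Endothelin 1, a signal from arch epithelium and vessels, acts on crest cells through its receptor Ednra and sets the ventral identity of the arches, with dlx3b, dlx5a, dlx6a and hand2 among its targets. The receptor gene ednraa was at 69.1, 31.3, 106 and 79.1 CPM against 105, 70.21, 91.1 and 68.4 CPM, so that the cluster and other cells overlapped. Of 10 genes of this list tested by stage, 1 was higher, the processing enzyme gene ece1 (12.9, 10.4, 42.3 and 46.8 CPM), and 3 were lower, the dlx genes already described. The hand2 transcript, for a factor of heart and ventral arch, was at 225, 444, 409 and 604 CPM against 405, 468, 253 and 343 CPM, did not pass the stage test (adjusted p = 0.566) and had a higher stage difference than other cells (interaction 1.09). In the arch list barx1, a homeobox gene of joints and tooth-bearing mesenchyme, behaved likewise, at 77.3, 72.4, 15.9 and 50.4 CPM where other cells went from 77.9 and 73.6 to 4.32 and 8.08 CPM (interaction 2.18, SE 0.45, edgeR adjusted p = 0.0001).

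FGF pathway genes summed to 14.9, 19.8, 15.0 and 13 per 10000 against 6.26, 5.54, 7.40 and 4.89. The feedback inhibitor spry4 was at 516, 323, 458 and 417 CPM against 141, 110, 182 and 75.5 CPM, the highest of the clusters in all libraries, with overlapping stages (adjusted p = 0.949). Its fellow dusp6, a phosphatase that ends the same signal, was at 225, 181, 61.6 and 89.9 CPM and was the 1 of 13 FGF genes called by stage, where it fell by 1.58 on the log2 scale (SE 0.32, adjusted p = 0.0143). Among guidance genes, sema3d, a semaphorin of migrating cells, was at 49.2, 92.6, 37.0 and 28.8 CPM against 5.71, 2.16, 3.06 and 5.33 CPM, and the chemokines cxcl12a and cxcl18b were also at least 2-fold higher in all libraries. The related cxcl12b was at 30.5, 20.9, 59.9 and 39.6 CPM against 28.2, 26, 4.01 and 5.41 CPM, with a higher stage difference than in other cells (interaction 3.49, SE 0.49, adjusted p = 1.84e-10). Of the Notch list, the target gene hey1 was at least 2-fold higher in all libraries, at 23.4, 37.6, 35.2 and 28.8 CPM against 5.44, 4.04, 10.3 and 3.99 CPM, while the receptor gene notch1b and the ligand gene dll4, both known from endothelium, were at least 2-fold lower. None of 10 guidance genes, none of 10 Notch genes and none of 12 Wnt genes passed the stage test in edgeR, where 4, 2 and 2 had an unadjusted p below 0.05, and DESeq2 also called none.

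Proliferation genes summed to 60.0 and 57.0 UMIs per 10000 at 48 hpf and 39.6 and 38.3 at 72 hpf, without overlap (58.5 ± 2.11 against 38.9 ± 0.933, SD, n = 2; exact permutation p = 0.333, the smallest possible). The difference of the sums was -19.4 in thinned cells and -19.6 as counted. Other cells were at 42.8, 56.8, 36.2 and 43.0, with overlapping stages. Of 23 genes tested, 2 were lower, the replication clamp gene pcna, at 527, 313, 144 and 122 CPM (adjusted p = 0.013), and the nucleotide enzyme gene dut, at 428, 263, 107 and 115 CPM (adjusted p = 0.0103). After thinning 7 could be tested and 0 were lower in edgeR, with dut (adjusted p = 0.0706) and pcna (adjusted p = 0.125) the 2 at an unadjusted p below 0.05. In the interaction test 8 of 36 had a lower stage difference than in other cells and none a higher one (also none at an unadjusted p below 0.05), and the 8, mcm2, mcm3, mcm4, mcm5, pcna, dut, gins2 and cdc6, are known to act in DNA replication. The topoisomerase gene top2a, of the G2 and M phases, was low in the cluster throughout, at 19.9, 6.27, 14.1 and 14.4 CPM against 78.3, 70.8, 61.9 and 99.4 CPM. Deposited phase calls put 64.4%, 43.1%, 36.6% and 40.6% of the cluster's cells in S or G2M, with 72 hpf below both 48 hpf libraries. Other cells were at 50.5%, 57.9%, 43.7% and 50.2%, so this order of the stages was not particular to the cluster. Within the cluster the S share was 39.7%, 22.7%, 17.8% and 14.6%. Its G2M share had nearly the same mean at both stages, 22.5% at 48 hpf and 22.4% at 72 hpf.

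Markers of heart muscle and epidermis were lower in the cluster than in other cells. Myocardial genes summed to 13.8, 4.97, 6.43 and 15.0 UMIs per 10000 against 181, 51.8, 65.1 and 43.8 in other cells and 63.8, 46.5, 12.5 and 36.6 in Erythrocytes. Epidermal genes summed to 14.0, 17.5, 19.6 and 31.6 against 34.9, 37.7, 51.1 and 47.9, and 4 of 11 were higher at 72 hpf, among them epcam at 19.9, 12.5, 65.2 and 126 CPM (adjusted p = 0.011). Epicardial genes summed to 2.29, 1.94, 2.36 and 3.96 against 1.1, 1.53, 2.42 and 3.29, and smooth muscle and bulbus genes to 1.55, 0.885, 7.33 and 5.22 against 2.18, 0.978, 5.06 and 4.39. Leukocyte and epicardial lists held no gene at least 2-fold higher in all libraries, and 1 leukocyte gene of 1 was lower.

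The cluster's share of annotated cells was 2.05%, 3.21%, 1.83% and 2.23%, or 2.63% ± 0.822 at 48 hpf and 2.03% ± 0.282 at 72 hpf (SD, n = 2). The stages overlapped, and edgeR on cell numbers over 18 clusters gave a log2 difference of -0.37 (SE 0.40, adjusted p = 0.592). Of the 18 clusters 8 differed by stage at this threshold (44.4%). The exact permutation p for the share was 0.667, and leaving out 1 library at a time gave log2 differences from -0.66 to -0.01.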

How the data were processed

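Droplet libraries of dissected zebrafish hearts (4, from 2 lines at 48 and 72 hpf) were analysed. The authors made the deposited counts, whole UMIs per gene and barcode, with Cell Ranger against GRCz11. They clustered the cells they kept (at most 2500 genes) with Seurat. They also removed cells above a limit of mitochondrial or hemoglobin reads, so Erythrocytes richer in hemoglobin reads were left out. The deposited annotation also gives a percent of mitochondrial UMIs and phase calls, and total UMIs matched it for 52447 of 52447 barcodes. Barcodes the authors did not keep, doublets included, stayed out of the comparisons, and no doublet caller was run. No depth limit beyond theirs was added.

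UMIs were summed per library over Neural crest cells and over all other annotated cells and tested in edgeR 4.0.16 (R 4.3.3; quasi-likelihood, TMM, filterByExpr, Benjamini-Hochberg at 0.05), with DESeq2 1.42.0 as an alternative. SE is the log2 difference over the root of F. Ratios between groups used a pseudocount of 1 CPM and genes with at least 3 Neural crest UMIs in every library. This minimum drops genes low in the cluster and can raise list medians. Thinning drew 500 UMIs per cell (seed 11). Shares and limits of a count of 0 (3 counts) cover counting error only. Exact permutation tests were two-sided. The stage test within Neural crest was run on simulated counts with the same dispersion for every gene and no difference between lines. Such counts do not show how the test behaves with these libraries. Of 558 list genes 462 were matched to the 25434 identifiers, some among gene copies by comparing detection shares with the study's tables, and a copy that could not be resolved is given with its identifier.

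The members, the 29 gene lists and the sets were chosen with earlier results of these data known. Named genes are the 5 markers and the 20 genes with the highest lowest ratio, the 10 largest stage differences in each direction past the threshold without overlap, the 5 smallest adjusted p per direction of the interaction, and 2 to 4 members per list with the highest level or past a test. Other genes named were chosen after their values were seen. Columns of the authors' own comparisons were not used. Alternatives were DESeq2, no TMM, no filter, a line block, deeper cells, thinning, other reference cells and leaving out each library.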

Additional observations from a re-analysis of the deposited data

Results flagged for a closer look

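The stage difference within Neural crest differed from that in all other annotated cells for 472 genes in the higher and 197 in the lower direction by the interaction term of edgeR (Benjamini-Hochberg adjusted p below 0.05). The genes with the smallest adjusted p had differences of 5.37 for edn2, 4.57 for crip2, 3.41 for krt94, 5.74 for tbx20 and 4.08 for fhl2a, and of -4.14 for tbx18, -4.12 for apoc1, -3.62 for sst2, -1.96 for prdx2 and -2.73 for the copy of MYH6 (ENSDARG00000079564). Their levels in both cell groups stand in the report, and the part of depth, free RNA and the make-up of the other cells in them was not tested.

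Marker UMIs also occurred in barcodes that the annotation leaves out and that exceed its limit of 2500 genes. UMIs of at least 3 of the 5 markers were found in 309, 768, 137 and 5 such barcodes of the 4 libraries, or 19.6%, 25.9%, 19.2% and 2.99% of them. The share was 34.2%, 45.4%, 19.8% and 16.0% in Neural crest cells and 1.91%, 1.67%, 1.66% and 0.532% in other annotated cells. Those barcodes were deep, with medians of 18232, 25037, 14362 and 15700 UMIs, and over all barcodes above the limit twist1a was at 19.0, 21.2, 4.61 and 0 CPM, against 24.2, 24.9, 13.8 and 18.5 CPM in other annotated cells.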

How the results depend on the processing

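Within Neural crest, the count of genes higher at 72 hpf ran from 315 to 435 with 1 library left out and was 102 in thinned cells, where 1267 genes could be tested. The count of lower genes ran from 114 to 286 (286 without the 72 hpf et31 library) and was 60 with DESeq2, 321 with no filter and 13 in thinned cells. Scaling by TMM moved all genes by -0.15 on the log2 scale, and without it 456 were higher and 81 lower. Removing cells with endothelial or epidermal genes, chosen after the data were seen, gave 305 and 73. In the interaction test leave-one-out counts ran from 275 to 335 and from 90 to 125, and with no filter 125 were lower. The difference of apoc1 ran from -5.73 without 48 hpf et33 to 1.31, a reversal, without 48 hpf et31. Against other cells, a pseudocount of 10 CPM left 114 genes higher, and with no minimum of UMIs 639 were lower. Leave-one-out gave 251 to 301 higher and 157 to 288 lower (288 without 72 hpf et33). Such counts can only rise from the main 216 and 137, because fewer libraries had to pass. Among the 10 genes with the largest stage differences in each direction and the 10 named of the interaction, those that lost their call were grem2b, pth1a, si:dkey-261m9.11 and emx3 without a 48 hpf library, histh1l2 with DESeq2 and sst2 in the interaction without 48 hpf et31. Of 79 list members called by stage, 68 were called again with DESeq2, 72 with the line block, 30 of 46 tested after thinning and 58 to 71 with 1 library left out. Among those lost with DESeq2 were dlx3b, dlx4b, dlx6a, lum and ece1, and with the block dlx3b, dlx4b and ece1. Removing cells with endothelial or epidermal genes lost, among others, the collagen genes col2a1a, col9a1a, col9a2 and col11a1a. The cause was not tested for any of these beyond the fewer genes tested after thinning. The share of cells ran from -0.66 to -0.01 on the log2 scale with 1 library left out.

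With line as a replicate block, 352 genes were higher and 89 lower at 72 hpf, and the share differed by -0.34 (adjusted p = 0.470, edgeR). Of the markers, twist1b was then higher (adjusted p = 0.0427) and twist1a lower (adjusted p = 0.0475). Deviations of the 2 libraries of a line from their stage means had a correlation of 0.120. With 2 libraries per stage this value is the same for both lines by construction. The 2 lines are thus not independent pairs, and it cannot show a pairing beyond the shared line. In 72 hpf et33, with a median of 1078 UMIs per cell, hoxd11a at 3.60 CPM was 1 UMI over all 219 cells of the cluster. Levels of a few CPM there do not show how many cells express a gene.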
